A study of Arabidopsis thaliana with 12 samples.

Results

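UGT genes encode glycosyltransferases, enzymes that move a sugar from a UDP-sugar donor onto a small molecule such as a hormone, a phenolic or a sterol. In plants the family is large and many of its genes stand side by side in tandem groups. Attaching a sugar commonly changes the solubility, storage or activity of the acceptor, and for several hormones it is a known route of inactivation. The genes described here were 58 of 27444 nuclear protein-coding genes of Arabidopsis, chosen by a table symbol that begins with UGT and goes on with a number. A gene was counted as having a peak when the summit, the position of highest signal within a peak, lay inside the gene or within 1000 bp of it on either side. The family was selected on results of the same peak lists, so its counts and strengths are a description and were not tested.

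The peaks came from chromatin immunoprecipitation with an antibody to GFP, followed by sequencing, on inflorescences of 3 genotypes with 2 independent biological replicates each. The genotypes were gai-YPet cuc2-1, which carries pGAI:gai∆17-3xYPet in the cuc2-1 mutant, gai-YPet, which carries the same transgene without cuc2-1, and Landsberg erecta (Ler) plants with no transgene. The transgene uses the GAI promoter to express GAI, a DELLA repressor of gibberellin responses, without 17 residues and with a yellow fluorescent tag, and all tagged plants therefore carry a GAI version that is known to resist gibberellin-triggered degradation. CUC2, a transcription factor of the NAC family, acts at the boundaries between organs. The source names call every tagged library L306, with cuc2-1 added for the mutant, and open flowers and older buds had been removed from the tissue.

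The lists held 8193 and 3666 peaks in gai-YPet cuc2-1, 7042 and 11289 in gai-YPet, and 234 and 406 in Ler. Read totals are not part of the lists and depth is unknown, and a gene without a peak is a gene without a call in that list and not one shown to be unbound. List length touches every difference between genotypes given here.

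Peaks lay at many UGT genes in both tagged genotypes and at 1 UGT gene in Ler. In gai-YPet cuc2-1, 26 UGT genes (44.8%) had a peak in replicate 1 and 17 (29.3%) in replicate 2, where the shares of all genes were 20.8% and 10.5%. In gai-YPet, 22 (37.9%) had a peak in replicate 1 and 35 (60.3%) in replicate 2, where the shares of all genes were 18.8% and 31.9%. In Ler no UGT gene had a peak in replicate 1 and 1 had a peak in replicate 2, against 0.051% and 0.215% of all genes. Set against each other by replicate number, gai-YPet cuc2-1 and gai-YPet had 26 and 22 UGT genes in replicate 1, and 17 and 35 in replicate 2, so the order of the genotypes differed between the replicates. The 4 tagged lists stood in the same order by their share of UGT genes as by their share of all genes.

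**Figure D1:**
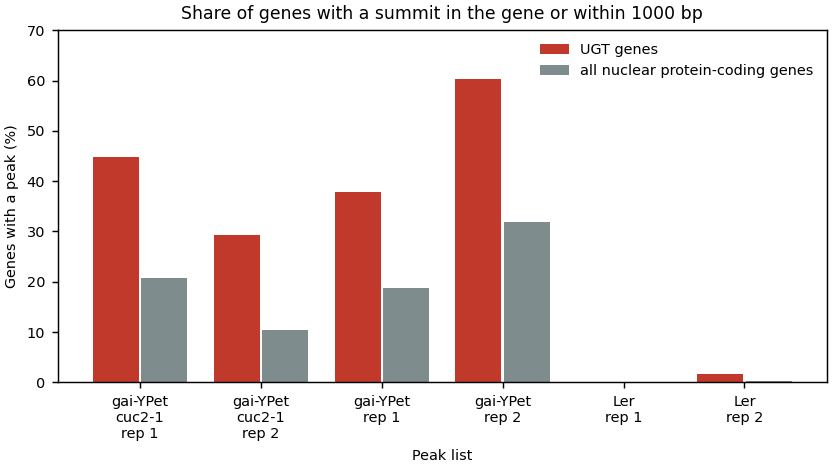
Share of genes with a peak in each of the 6 lists, in percent, for the 58 UGT genes (red) and all 27444 nuclear protein-coding genes (grey). The UGT bar is the taller one in each of the 4 tagged lists, 29.3% to 60.3% against 10.5% to 31.9%, and no error is drawn because each bar is 1 list.

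Counted over replicates, 15 UGT genes (25.9%) had a peak in both gai-YPet cuc2-1 lists, against 10.2% of all genes. In both gai-YPet lists there were 22 (37.9%), against 18.1% of all genes. All 4 tagged lists held a peak at 13 UGT genes (22.4%), against 9.75% of all genes, and at least 1 tagged list at 36 (62.1%), against 33.3%. A Ler list held a peak at 1 UGT gene (1.72%), against 0.244% of all genes. The remaining 22 UGT genes had no peak in any tagged list. Without gai-YPet cuc2-1 replicate 2 the count for gai-YPet cuc2-1 was 26, where all genes had 20.8%. Without gai-YPet replicate 1 that for gai-YPet was 35, where all genes had 31.9%. With summits inside the gene alone, the counts were 4 in both gai-YPet cuc2-1 lists and 8 in both gai-YPet lists. The shares of all genes under that rule were not computed, and those above do not apply to it. The median gene length was 1842.5 bp for UGT genes and 2078 bp over all genes.

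A tandem family can count one peak more than once, so the peaks were also merged into regions. The 115 tagged peaks at UGT genes formed 44 regions. Of these, 6 were shared by 2 UGT genes and none by more than 2, and 11 UGT genes shared a region with another. Of the 22 UGT genes with a peak in both gai-YPet lists, 15 shared no region with another UGT gene. Another protein-coding gene also lay within reach of 20 of the regions, while 24 were within reach of UGT genes alone. The strongest summit lay inside a UGT gene in 18 regions, inside another gene in 4 and in no gene in 22, and a UGT gene was the nearest gene to 37. In 10 of the regions all 4 tagged lists had a peak, and the summits lay 14 to 104 bp apart across the lists, with a median of 35 bp.

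The strength of a peak is given as the authors' fold enrichment and as a percentile by q-value within its own list, where 100 is the strongest peak. Among UGT genes with a peak in both lists of a genotype, the mean percentile over the 2 lists had a median of 65.9 in gai-YPet cuc2-1 (range 15.9 to 92.8, n = 15 genes), against 66.7 for the 2799 such genes in all. In gai-YPet the median was 76.2 (range 17.4 to 96.3, n = 22), against 65.5 for 4976 genes. Neighbours that share a peak each counted it. With each summit given only to its nearest gene, the gai-YPet median of UGT genes was 67.4. That of all genes was not recomputed. UGT genes thus had peaks from the weak end of the lists to near their top.

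**Figure D2:**
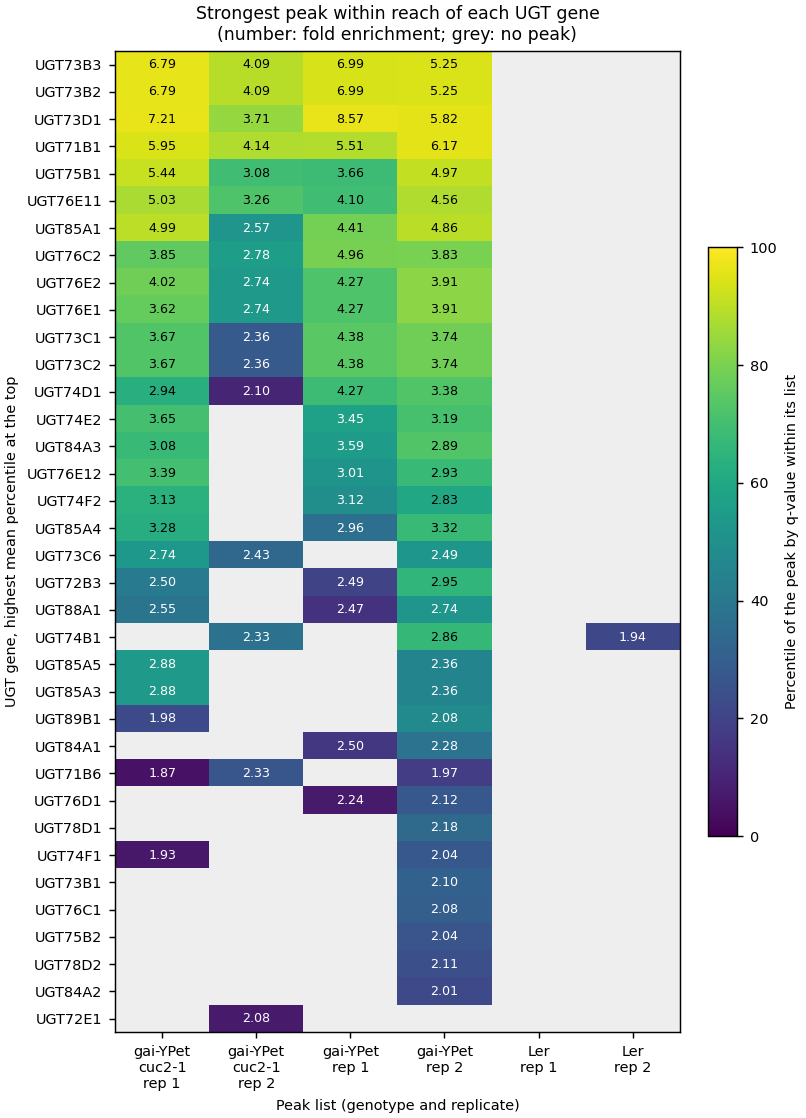
Strongest peak at each of the 36 UGT genes with a tagged peak, in the 6 lists. Numbers are the authors' fold enrichments, colour is the percentile by q-value within the list, grey is no peak, and genes are ordered by the mean percentile over the 4 tagged lists with a missing peak counted as 0. The upper 13 genes have a peak in all 4 tagged lists, and the Ler columns are empty but for UGT74B1.

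The UGT peak with the highest mean percentile over the 4 tagged lists was shared by the tandem neighbours UGT73B3 (AT4G34131) and UGT73B2 (AT4G34135), at chromosome 4, 16344684 to 16345534. UGT73B3 is known from responses to bacterial infection. The peak had folds of 6.79 and 4.09 in gai-YPet cuc2-1 and 6.99 and 5.25 in gai-YPet. Its percentiles were 96.4 and 89.2 in gai-YPet cuc2-1 and 93.8 and 94.3 in gai-YPet. It was near the top of all 4 tagged lists, and neither Ler list had a peak there. Its summit was in no gene in the gai-YPet cuc2-1 lists and just inside UGT73B2 in the gai-YPet lists. The third gene of the group, UGT73B1, had peaks in gai-YPet replicate 2 alone. One, with a fold of 2.10, was shared with UGT73B2 at chromosome 4, 16347595 to 16347898, and the other had a fold of 2.06.

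A peak of similar strength within reach of UGT73D1 was closer to other genes. It lay at chromosome 3, 19696338 to 19697120, with folds of 7.21 and 3.71 in gai-YPet cuc2-1 and 8.57 and 5.82 in gai-YPet. Its summit was inside LUT1 and the overlapping AT3G53140, 904 to 921 bp from UGT73D1. UGT73D1 had no peak when the summit went only to the nearest gene or the window was 500 bp, and it was the UGT gene closest to the edge of the 1000 bp window. Just outside that window lay a gai-YPet cuc2-1 replicate 1 peak 1179 bp from UGT84A2 with a fold of 2.10 and a gai-YPet replicate 1 peak 1189 bp from UGT85A7 with a fold of 3.64.

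UGT71B1 and UGT75B1 came next. The UGT71B1 region, at chromosome 3, 7665748 to 7667326, held a pair of peaks. The stronger one had its summit in no gene, with HYR1 as its nearest gene, and folds of 5.95 and 4.14 in gai-YPet cuc2-1 and 5.51 and 6.17 in gai-YPet. The weaker one had its summit inside UGT71B1, with folds of 3.51 and 2.16 in gai-YPet cuc2-1 and 3.99 in gai-YPet replicate 1, while gai-YPet replicate 2 had 1 peak over the whole region. The UGT75B1 peak, at chromosome 1, 1646954 to 1647750, had its summit inside the gene, with folds of 5.44 and 3.08 in gai-YPet cuc2-1 and 3.66 and 4.97 in gai-YPet. UGT75B1 is known as a partner of callose synthase at the cell plate, and the callose synthase gene CALS1 was within reach of the same peak. Neither gene had a Ler peak.

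The genes are taken next by the molecules their enzymes act on. Measured genes in these lists by molecule are those with a UGT table symbol. Listed genes with another table symbol were not counted. Each count can be read beside the shares of all genes, 10.2% in both gai-YPet cuc2-1 lists, 18.1% in both gai-YPet lists and 33.3% in at least 1 tagged list, though lists of so few genes allow no close reading. The list for cytokinins, hormones of cell division, had 4 measured UGT genes, and all had a tagged peak. UGT85A1, which glucosylates zeatin on its side chain, had folds of 4.99 and 2.57 in gai-YPet cuc2-1 and 4.41 and 4.86 in gai-YPet, at chromosome 1, 7906732 to 7907683, in no gene. UGT76C2, which glucosylates cytokinins on the ring nitrogen, had folds of 3.85 and 2.78 in gai-YPet cuc2-1 and 4.96 and 3.83 in gai-YPet, at chromosome 5, 1765143 to 1765797. Its tandem neighbour UGT76C1, with the same activity, had a peak in gai-YPet replicate 2 alone, with a fold of 2.08, in a region shared with UGT76C2 and nearest to that gene. The cytokinin genes with a peak in both lists numbered 3 in gai-YPet cuc2-1 and 3 in gai-YPet.

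The remaining cytokinin gene, UGT73C1, belongs to the tandem UGT73C group and shared its strongest peak with UGT73C2. That peak lay in no gene, at chromosome 2, 15411966 to 15412473, with folds of 3.67 and 2.36 in gai-YPet cuc2-1 and 4.38 and 3.74 in gai-YPet. UGT73C6, which acts on flavonols and brassinosteroids, had its own peak inside the gene, with folds of 2.74 and 2.43 in gai-YPet cuc2-1, no peak in gai-YPet replicate 1 and a fold of 2.49 in gai-YPet replicate 2. UGT73C7, which is on chromosome 3 and not in this group, had no tagged peak. Copies in tandem groups are similar in sequence, and how reads that match more than one copy were treated is not given in the sources used here, so the split between neighbours is uncertain. TAIR10 is the genome of another accession, Columbia, and the part of sequence differences from Landsberg erecta was not tested.

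**Figure D3:**
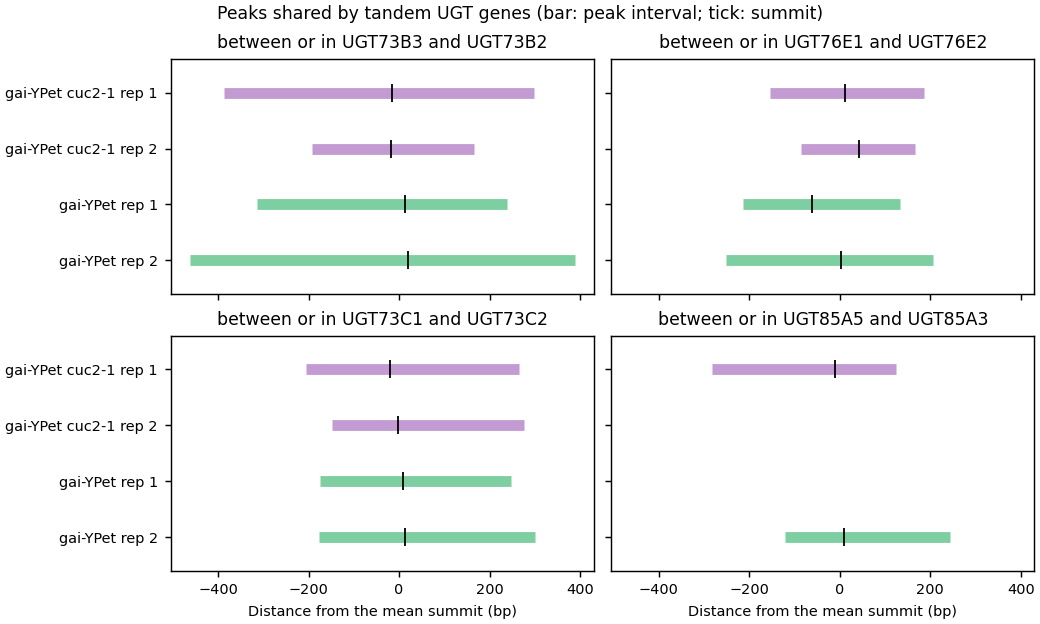
Peak intervals (bars) and summits (ticks) of 4 regions shared by 2 tandem UGT genes, in bp from the mean summit, with gai-YPet cuc2-1 lists above gai-YPet lists. The summits of the UGT73B3 and UGT73B2 region lay within 36 bp and those of the UGT76E1 and UGT76E2 region within 104 bp, while the UGT85A5 and UGT85A3 region has a peak in 1 list of each genotype.

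Of the 5 measured genes of the auxin list, 3 had a tagged peak. UGT75B1, described above, was one. UGT74D1, which glucosylates auxins, had folds of 2.94 and 2.10 in gai-YPet cuc2-1 and 4.27 and 3.38 in gai-YPet, at chromosome 2, 13496088 to 13496684. UGT74E2, which acts on the auxin precursor indole-3-butyric acid, had a fold of 3.65 in gai-YPet cuc2-1 replicate 1, no peak in replicate 2, and folds of 3.45 and 3.19 in gai-YPet, at chromosome 1, 1704468 to 1705231. UGT84B1, which makes the glucose ester of auxin, and its neighbour UGT84B2 had no peak in any list.

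The UGT76E group held 4 UGT genes with a peak in both gai-YPet lists. UGT76E1, which glucosylates a hydroxylated jasmonate, shared a peak with UGT76E2 at chromosome 5, 24007751 to 24008207, with folds of 3.62 and 2.74 in gai-YPet cuc2-1 and 4.27 and 3.91 in gai-YPet. UGT76E2 had another peak inside the neighbouring AT5G59610, with folds of 4.02 in gai-YPet cuc2-1 replicate 1 and of 4.18 and 3.57 in gai-YPet. Neither peak had UGT76E2 as its nearest gene. On chromosome 3, UGT76E11 had a peak at 17194174 to 17194867 with folds of 5.03 and 3.26 in gai-YPet cuc2-1 and 4.10 and 4.56 in gai-YPet. None of these genes had a Ler peak.

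Among 6 measured genes for salicylic acid, pipecolate and jasmonate, 4 had a tagged peak, UGT76E1 included. The neighbours UGT74F2 and UGT74F1 both glucosylate salicylic acid. UGT74F2 had its strongest peak at the percentile 63.9 in gai-YPet cuc2-1 replicate 1, no peak in replicate 2, and percentiles of 49.5 and 60.1 in gai-YPet. UGT74F1 had folds of 1.93 in gai-YPet cuc2-1 replicate 1 and 2.04 in gai-YPet replicate 2. UGT76D1, which acts on dihydroxybenzoates made from salicylic acid, had peaks in gai-YPet alone, with folds of 2.24 and 2.12. UGT76B1, which acts on isoleucic acid and salicylic acid, and UGT71C3, which acts on methyl salicylate, had none.

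The abscisic acid list had 3 measured genes, of which 1 had a peak. UGT71B6 had folds of 1.87 and 2.33 in gai-YPet cuc2-1 and 1.97 in gai-YPet replicate 2, and its summit lay inside the neighbouring AT3G21790, so it had no peak when summits went only to the nearest gene. UGT71B8 and UGT71C5, also known to glucosylate abscisic acid, had none. Of the 10 genes named UGT71, 8 had no tagged peak, as had 66.7% of all genes.

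Of the 8 UGT genes counted for monolignols, sinapate and other phenolics, 5 had a tagged peak. None of them had one in both gai-YPet cuc2-1 lists and 3 had one in both gai-YPet lists. All genes had 33.3%, 10.2% and 18.1%. GT72B1 (UGT72B1), left out because of its table symbol, belongs to this list and had a peak in all 4 tagged lists. UGT84A1, which makes glucose esters of hydroxycinnamates, had peaks in gai-YPet alone, with folds of 2.50 and 2.28, and none with a window of 500 bp. Of the 4 measured flavonoid genes, 3 had a peak, all in gai-YPet replicate 2 alone and with folds of 2.01 to 2.18. The sterol gene UGT80B1 had none, while SGT (UGT80A2), left out in the same way, had a peak in 3 tagged lists.

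**Figure D4:**
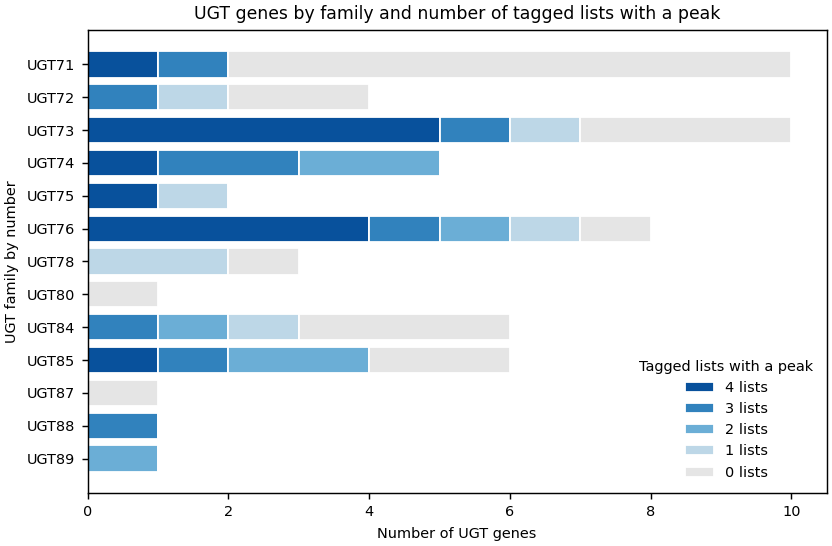
Number of UGT genes in each numbered family, split by the number of tagged lists (0 to 4) with a peak. UGT73 and UGT76 hold the most genes with a peak in all 4 tagged lists, with a shared peak counted for each gene. Of the 10 UGT71 genes, 8 have no tagged peak, as do 66.7% of all genes.

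More than 1 tagged region lay at 13 UGT genes, a count that was not made for all genes. UGT85A1 had a second peak inside the gene, at percentiles of 63.0 in gai-YPet cuc2-1 replicate 1 and of 26.5 and 70.3 in gai-YPet. UGT73C1 had a second one outside genes, with folds of 3.57 in gai-YPet cuc2-1 replicate 1 and of 3.06 and 2.99 in gai-YPet. Neither second peak was in gai-YPet cuc2-1 replicate 2. Of all 115 tagged peaks at UGT genes, 44 had the summit inside a UGT gene, 15 inside another gene only and 56 (48.7%) in no gene, where 53.2% of the 21898 tagged peaks within reach of any gene had it in no gene. The gene table gives no strand, so a summit before a gene could not be told from one after it.

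By family number, UGT73 had 10 genes, of which 6 had a peak in both gai-YPet cuc2-1 lists and 5 in both gai-YPet lists, where the shares of all genes were 10.2% and 18.1%. UGT76 had 8 genes, of which 4 had one in both gai-YPet cuc2-1 lists and 6 in both gai-YPet lists. These counts hold shared peaks once per gene, for UGT73B3 and UGT73B2, UGT73C1 and UGT73C2, and UGT76E1 and UGT76E2. With the nearest gene only, UGT73B3, UGT73C2, UGT73D1 and UGT76E2 fell out of both counts. All 5 UGT74 genes had at least 1 tagged peak, as did 33.3% of all genes. Of the 6 UGT85 genes, 1 had a peak in both gai-YPet cuc2-1 lists and 2 in both gai-YPet lists, and UGT85A5 and UGT85A3 shared a peak at chromosome 1, 7899771 to 7900297, with folds of 2.88 in gai-YPet cuc2-1 replicate 1 and 2.36 in gai-YPet replicate 2.

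UGT74B1, which works in glucosinolate synthesis, was the UGT gene with a Ler peak. Its region, at chromosome 1, 8524905 to 8525365, had folds of 2.33 in gai-YPet cuc2-1 replicate 2, 2.86 in gai-YPet replicate 2 and 1.94 in Ler replicate 2. All 3 replicate 2 lists had this peak and no replicate 1 list did. Over all genes, 59 had a peak in Ler replicate 2, 21 of these also in both tagged replicate 2 lists, and 7 of those in no tagged replicate 1 list.

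The question of the cuc2-1 comparison is whether the sites of the tagged GAI differ when CUC2 is mutated. Of the 22 UGT genes with a peak in both gai-YPet lists, 13 (59.1%) also had one in both gai-YPet cuc2-1 lists, against 53.8% of all such genes. Without any gai-YPet cuc2-1 peak were 2 (9.09%), UGT76D1 and UGT84A1, against 8.16% of all such genes. Both had weak gai-YPet peaks, with folds of 2.12 to 2.50. Of the 15 UGT genes with a peak in both gai-YPet cuc2-1 lists, none lacked a gai-YPet peak, against 0.5% of all such genes. These shares stood near those of all genes, but neighbours that share a peak each counted it. The pairs UGT73B3 and UGT73B2, UGT76E1 and UGT76E2, and UGT73C1 and UGT73C2 were all among the 13. By region, 25 were in both gai-YPet lists and 10 in all 4 tagged lists, a count not made for all genes. In place of UGT76D1 and UGT84A1, leaving out gai-YPet cuc2-1 replicate 1 gave 9 genes. Leaving out gai-YPet replicate 1 gave 8, and tagged lists of equal length gave 0. UGT genes in the gai-YPet cuc2-1 lists alone numbered 1 without gai-YPet cuc2-1 replicate 1 and 2 without gai-YPet replicate 2. Where a list was left out, its genotype was counted by the 1 list that remained.

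Presence in gai-YPet cuc2-1 replicate 2, the shortest tagged list, went with gai-YPet peak strength at UGT genes in both gai-YPet lists. Of the 12 UGT genes with a mean gai-YPet percentile above 75, 12 had a peak in gai-YPet cuc2-1 replicate 1 and 12 in replicate 2, where all genes had 99.7% and 95.1%. The 12 hold the pairs UGT73B3 and UGT73B2, UGT76E1 and UGT76E2, and UGT73C1 and UGT73C2, which count a shared peak for each gene. Between 50 and 75, 6 of 6 had a peak in gai-YPet cuc2-1 replicate 1 and 1 in replicate 2, where all genes had 96.6% and 47.3%. Between 25 and 50, 2 of 3 had one in replicate 1 and 0 in replicate 2, where all genes had 79.6% and 10.9%. The 1 gene below 25 had neither, where all genes had 48.4% and 6.57%. Outside these classes, UGT73C6, UGT71B6, UGT74B1 and UGT72E1 had a gai-YPet cuc2-1 replicate 2 peak but none in gai-YPet replicate 1. UGT73C6 and UGT71B6 (3.45% of UGT genes) had peaks in both gai-YPet cuc2-1 lists and gai-YPet replicate 2, against 0.168% of all genes. UGT74B1 (1.72%) had tagged peaks in the replicate 2 lists alone, against 0.153%. UGT72E1 (1.72%) had its only tagged peak in gai-YPet cuc2-1 replicate 2, against 0.0619%. Each of these shares rests on 1 or 2 UGT genes. For 7 UGT genes (12.1%), among them UGT74E2, UGT74F2 and UGT84A3, gai-YPet cuc2-1 replicate 2 was the one tagged list without a peak. The share of all genes with this pattern was 6.84%. Their folds were 2.50 to 3.65 in gai-YPet cuc2-1 replicate 1, 2.47 to 3.59 in gai-YPet replicate 1 and 2.74 to 3.32 in gai-YPet replicate 2. The part of list length in these absences was not tested.

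Other genes of the same pathways were read in the same way. Of 36 measured genes for other hormone-inactivating or conjugating enzymes, 14 (38.9%) had a peak in both gai-YPet cuc2-1 lists and 19 (52.8%) in both gai-YPet lists, against 10.2% and 18.1% of all genes. IAMT1, which methylates auxin, had folds of 10.0 and 7.99 in gai-YPet cuc2-1 and 12.9 and 9.31 in gai-YPet. GA2OX8, which inactivates gibberellins, had folds of 8.34 and 5.35 in gai-YPet cuc2-1 and 9.06 and 6.44 in gai-YPet. Their mean percentiles over the 4 tagged lists were 99.8 and 96.9, against 93.4 for UGT73B3, the highest UGT gene.

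Of 29 measured genes of phenylpropanoid and flavonoid synthesis, 5 (17.2%) had a peak in both gai-YPet cuc2-1 lists and 9 (31%) in both gai-YPet lists, against the same 10.2% and 18.1%. TT7, the flavonoid 3'-hydroxylase, had folds of 5.30 and 4.77 in gai-YPet cuc2-1 and 8.54 and 6.14 in gai-YPet. Of 20 measured genes of UDP-sugar supply, 1 (5%) had a peak in both gai-YPet cuc2-1 lists, below the 10.2% of all genes, and 4 (20%) in both gai-YPet lists, near the 18.1% of all genes. The gene in both gai-YPet cuc2-1 lists was UGP2, a UDP-glucose pyrophosphorylase, with folds of 7.51 and 6.55 in gai-YPet cuc2-1 and 8.72 and 8.46 in gai-YPet.

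A further 6 genes carry a UGT name only as a synonym and were not counted. DOGT1 (UGT73C5), which glucosylates brassinosteroids and deoxynivalenol, had folds of 3.26 and 1.97 in gai-YPet cuc2-1 and 2.46 and 3.45 in gai-YPet. GT72B1 (UGT72B1) had folds of 3.82 and 2.60 in gai-YPet cuc2-1 and 3.69 and 3.77 in gai-YPet. MGD1 (UGT81A1), a galactolipid synthase, also had a peak in all 4 tagged lists and SGT (UGT80A2) in 3, while UF3GT (UGT79B1) and AT5G54010 (UGT79B6) had none.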

How the data were processed

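Peaks had been called separately for each ChIP library. Per the submitters' processing notes, cutadapt, Bowtie2 and SAMtools were used, MACS2 and bedtools too, and the build was TAIR10; their versions and settings are not given. The authors' columns hold a score, the fold enrichment as a ratio, and the −log10 of a p-value and of a q-value, used here only to rank or describe peaks within a list. In the replicate 2 lists the deposited fold and −log10 columns had lost their decimal marks, and 5 decimals were restored; afterwards the authors' score was the −log10 q on a larger scale, truncated, in every line of the 6 lists. Other deposited columns give positions and summit offsets.

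Summits were assigned to genes of a RefSeq table of assembly TAIR10.1, which gives no strand, on the assumption that nuclear positions equal those of TAIR10. Of 29545 tagged nuclear summits, 65.3% lay outside genes as given, and 42.4% and 41.3% after shifts of 5000 and −5000 bp. Intervals printed are those of the peak lists.

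The UGT genes, the role and pathway lists and the rule for named genes were chosen with earlier results of these data known. Values in every list were given for the 12 strongest genes, those with peaks in both lists of 1 tagged genotype and none of the other, those with a Ler peak, 23 hormone-conjugating names (18 were members) and those sharing a summit, 31 in all. IAMT1, GA2OX8, TT7, UGP2 and the synonym genes were named after their values were seen. The assignment was tested on simulated data, where 200 of 200 planted summits were recovered, and equalled that of bedtools 2.31.1 in 6 of 6 lists. Python 3.11.15, numpy 2.4.6, pandas 2.3.3 and matplotlib 3.10.9 were used. No test was made.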

Additional observations from a re-analysis of the deposited data

How the results depend on the processing

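Counts were repeated under 18 alternatives for the UGT genes alone, and the shares of all genes were not recomputed. With the gene body alone, 4 UGT genes had a peak in both gai-YPet cuc2-1 lists and 8 in both gai-YPet lists, and 0 had a Ler peak. The strongest gai-YPet peaks of those 8 genes merged into 11 regions, against 20 for the 22 genes as first counted. The median percentile of the 8 genes was 58.5. UGT genes with a peak in both gai-YPet lists and no gai-YPet cuc2-1 peak numbered 1 with windows of 500 bp and of 3000 bp and with flanks alone, and 0 with the stronger 50% of each list and with tagged lists of equal length. With 500 bp, 1 UGT gene, UGT71B6, had a peak in both gai-YPet cuc2-1 lists and none in gai-YPet. The stronger 50% held 0 UGT genes with a Ler peak. With the nearest gene only, the median percentile was 67.4, and with lists of equal length 13 regions accounted for the gai-YPet genes.

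Each list was also left out in turn, and its genotype was then counted by the 1 list that remained. The counts were 15 to 26 UGT genes for gai-YPet cuc2-1 and 22 to 35 for gai-YPet. Without a gai-YPet cuc2-1 peak were 2 to 9, and without a gai-YPet peak 0 to 2. A Ler peak was at 0 to 1 UGT genes. There were 19 to 31 regions and a median percentile of 66.5 to 76.2. The highest gai-YPet cuc2-1 count was without its replicate 2 and the highest gai-YPet count without its replicate 1. Of the 31 named genes, 18 had a peak in another number of tagged lists with the gene body alone, 14 with the stronger 50%, 11 with lists of equal length, 8 with the nearest gene only, 7 with flanks alone, 6 with 500 bp and 5 with 3000 bp. No tagged peak was left with the nearest gene only for UGT73B3, UGT73C2, UGT73D1, UGT76E2, UGT71B6, UGT85A3 and UGT76C1, with 500 bp for UGT73C2, UGT73D1 and UGT84A1, and without peaks on a Ler peak for UGT74B1. With flanks alone, none was left for UGT75B1, UGT85A5, UGT76D1 and UGT74F1. The stronger 50% left none for UGT84A1, UGT71B6, UGT76D1, UGT74F1, UGT73B1 and UGT76C1. Lists of equal length left none for UGT84A1, UGT76D1, UGT74F1, UGT73B1, UGT76C1, UGT85A5 and UGT85A3. The gene body alone left none for UGT73B3, UGT73D1, UGT76E11, UGT76E2, UGT76E1, UGT73C1, UGT73C2, UGT74D1, UGT74E2, UGT74F2, UGT74B1, UGT85A3, UGT84A1, UGT71B6, UGT73B1 and UGT76C1. Lists of equal length held 13 UGT genes in both gai-YPet cuc2-1 lists and 15 in both gai-YPet lists. All other counts over the 58 genes stayed within 1.5 times those reported. For single named genes the left-out lists, merged regions, nearby summits and added synonyms were not given. Depth is unknown and limits what a missing peak can show. No paired analysis was made, as the counts over peak lists come from no test to which a replicate block could be added. By replicate number, gai-YPet cuc2-1 and gai-YPet had 26 and 22 UGT genes in replicate 1 and 17 and 35 in replicate 2.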
